A study of Mus musculus with 2 samples.

Results

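The miR-183/96/182 cluster consists of the microRNA hairpins Mir183, Mir96 and Mir182, which lie next to each other on 1 strand and are read as products of 1 primary transcript. They were found by matching the Ensembl IDs of the tables to GENCODE mouse symbols, which gave 3 loci of 1973. The data are microRNA sequencing of RNA under 30 nt from the midbrain, which forms from the middle brain vesicle, of healthy B6NCrl mouse embryos at embryonic day 13.5, male and female together. There is 1 group of 2 biological replicates and no second tissue, age or treatment, so the comparisons are between the hairpins within a library and between the libraries. The labels give both replicates 1 donor record and do not say whether the embryos came from separate litters. The p-values below set the 2 libraries against counting error and compare no conditions.

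A microRNA is cut from a hairpin and guides a silencing complex to messenger RNAs that pair with its seed, bases 2 to 8 from the 5′ end. The miR-183/96/182 cluster is known from sensory cells, above all photoreceptors of the retina, hair cells of the inner ear, olfactory neurons and neurons of the dorsal root ganglia. Changes in the seed of miR-96 cause progressive hearing loss in mice and people, and loss of the cluster disturbs the maturation of photoreceptors and hair cells.

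The 5′ arms are shown because they carry the kinship of the 3 microRNAs and the pieces in which they differ. Sequences are from RefSeq on GRCm38.p6, where all 3 members matched, and capitals mark the seed.

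miR-183-5p: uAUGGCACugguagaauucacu

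miR-96-5p: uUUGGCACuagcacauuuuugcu

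miR-182-5p: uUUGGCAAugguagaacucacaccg

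Counted from 1 at the 5′ end, miR-183-5p and miR-182-5p were identical at 18 of 22 positions and differed by A2U, C8A, U17C and U22A, with the base of miR-183-5p first. miR-183-5p and miR-96-5p were identical at 13 of 22 positions, with A2U as the only difference inside the seed. miR-96-5p and miR-182-5p shared 12 of 23 positions and differed in the seed by C8A. So the 3 seeds are different words that share 5 or 6 of their 7 bases, and the stretch after the seed is alike in miR-183-5p and miR-182-5p but not in miR-96-5p. Among 1679 mature mouse microRNA names in the RefSeq table, none other had the seed of miR-183-5p or of miR-182-5p. The seed of miR-96-5p recurred in miR-1271-5p, whose locus Gm24195 had 0 counts in both libraries, which allows up to 0.589 CPM in replicate 1 and 1.02 CPM in replicate 2.

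The hairpins are shown with both mature arms in capitals because the deposited counts are per hairpin, so the 5′ and 3′ arms fall in 1 count.

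Mir183: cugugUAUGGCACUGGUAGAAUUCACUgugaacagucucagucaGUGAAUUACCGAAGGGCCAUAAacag

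Mir96: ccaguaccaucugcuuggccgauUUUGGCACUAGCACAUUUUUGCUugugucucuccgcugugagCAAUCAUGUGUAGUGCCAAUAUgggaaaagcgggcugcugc

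Mir182: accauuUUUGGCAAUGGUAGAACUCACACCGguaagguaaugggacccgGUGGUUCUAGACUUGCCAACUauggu

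No member shared an exact run of more than 11 nt with any of 2201 other annotated microRNA hairpins, well under the 20 nt from which a locus was called uncertain. The counts of these loci are of hairpins without a near-identical annotated copy.

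On mm10 the cluster lies on the minus strand of chromosome 6. Mir183 (ENSMUSG00000065619.2) lies from 30169668 to 30169737, Mir96 (ENSMUSG00000065586.1) from 30169446 to 30169551 and Mir182 (ENSMUSG00000076361.1) from 30165918 to 30165992. In the direction of transcription Mir183 comes first, Mir96 follows after 116 nt and Mir182 after a further 3453 nt, and the 3 hairpins span 3820 nt. GENCODE M21 has no other gene over this span, so each hairpin is annotated as a gene of its own outside any exon or intron of a host. The nearest gene upstream is Rncr4, a retinal noncoding RNA on the plus strand, which starts 3156 nt from Mir183. On the other side Nrf1, a transcription factor gene of the plus strand, ends 12460 nt from Mir182.

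**Figure D1:**
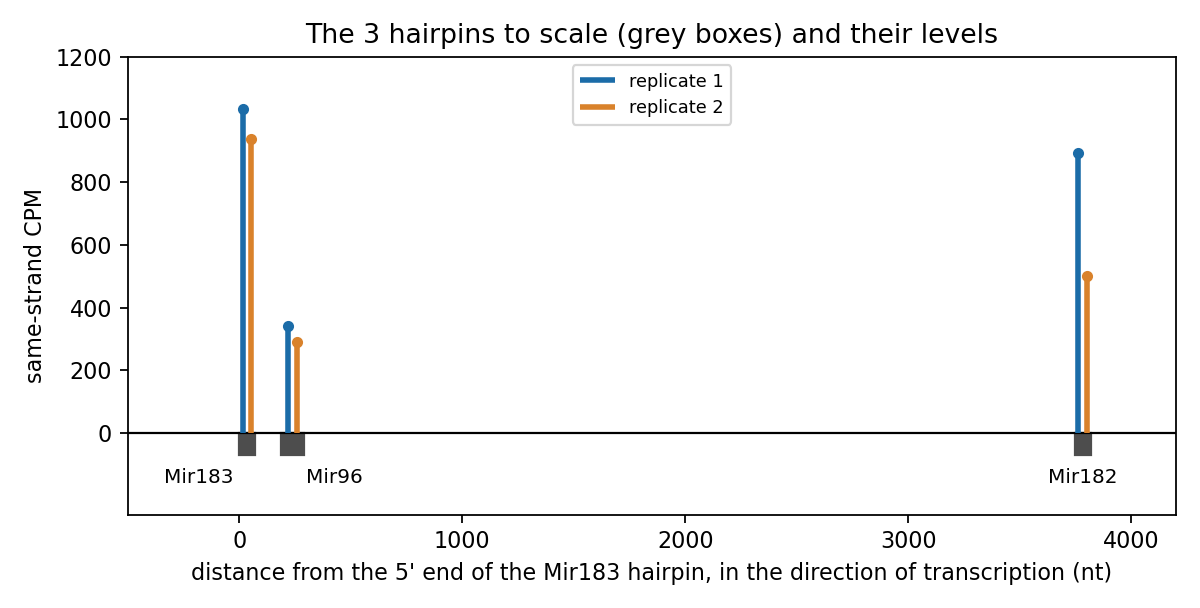
The 3 hairpins drawn to scale as grey boxes along the distance from the 5′ end of Mir183 in nt, with the same-strand CPM of each hairpin in both replicates as vertical lines. Mir183 and Mir96 lie 116 nt apart and Mir182 lies 3453 nt further on, and the gap between the replicates is widest at Mir182.

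Replicate 1 held 5093743 counts on the strand of the genes and replicate 2 held 2935841, a depth ratio of 1.74. Levels are CPM, counts scaled to a common library total. Intervals are 95% exact Clopper-Pearson intervals and cover the counting error of reads only. Reads carried no molecular identifiers, so repeated reads of 1 molecule could not be told apart and the intervals do not allow for them. Of the fixed neural list, Mir137 stood at 9265 and 6397 CPM in replicates 1 and 2, while all 3 loci of the neuronal microRNA miR-124 lay under 10 CPM and share runs of 20 nt with other loci, whose multimapping reads the gene counts leave out.

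All 3 hairpins were detected in both libraries, and together they held 11534 counts in replicate 1 and 5079 in replicate 2. This was 0.226% of the first library (interval 0.222 to 0.231) and 0.173% of the second (0.168 to 0.178), with a mean of 0.200% ± 0.0378 (SD, n = 2). As summed levels these were 2264 and 1730 CPM, 1.31-fold apart. Mir182 made up 73.1% of that difference, and the sum of Mir183 and Mir96 alone was 1.12-fold higher in replicate 1.

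Mir183, the first hairpin of the transcript, had the most counts in each library. It had 5256 counts in replicate 1 and 2750 in replicate 2, or 1032 CPM (interval 1004 to 1060) and 936.7 CPM (902 to 972), with a mean of 984 ± 67.3 CPM (SD, n = 2). It ranked 90 in replicate 1 and 93 in replicate 2 among all loci, so its place hardly moved.

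Mir182, the last hairpin, was second. It had 4547 counts in replicate 1 and 1474 in replicate 2, or 893 CPM (867 to 919) and 502 CPM (477 to 528), with a mean of 697 ± 276 CPM (SD, n = 2). Replicate 1 was the high library, 1.78-fold above replicate 2, and the locus fell from rank 96 to rank 123 between them.

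Mir96, in the middle, was lowest. It had 1731 counts in replicate 1 and 855 in replicate 2, or 339.8 CPM (324 to 356) and 291 CPM (272 to 311), with a mean of 316 ± 34.4 CPM (SD, n = 2) and ranks of 152 and 150. The order Mir183, Mir182, Mir96 held in both libraries, and the counting intervals of the 3 hairpins did not overlap within a library. Over the replicates, the values of Mir96 lay below every value of the other two, and the lower value of Mir183 lay only 44 CPM above the higher value of Mir182. The means of Mir183 and Mir182 lay 287 CPM apart, close to the SD of Mir182, so it is not resolved by 2 replicates.

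**Figure D2:**
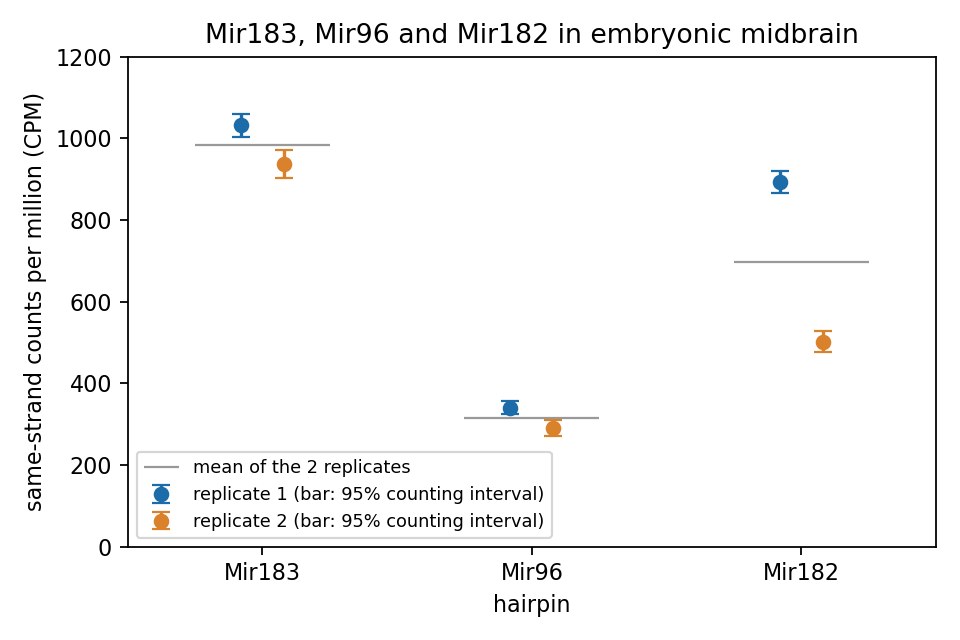
Same-strand CPM of Mir183, Mir96 and Mir182 in each replicate (points, with 95% counting intervals) and their mean (grey line). The order Mir183, Mir182, Mir96 is the same in both libraries, and Mir182 stands at 893 CPM in replicate 1 and 502 CPM in replicate 2.

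As parts of the cluster's own counts, which do not depend on the scaling of the libraries, Mir183 held 45.6% in replicate 1 and 54.1% in replicate 2. Mir182 held 39.4% (38.5 to 40.3) and 29.0% (27.8 to 30.3), the largest shift of the 3, and Mir96 held 15.0% (14.4 to 15.7) and 16.8% (15.8 to 17.9). The means were 49.9% ± 6.06 for Mir183, 34.2% ± 7.35 for Mir182 and 15.9% ± 1.29 for Mir96 (SD, n = 2). A read was taken as a whole mature microRNA, which counts per hairpin cannot show, so counts were not divided by hairpin length. How well each sequence is captured by the library chemistry was not measured, so a ratio of 2 hairpins within a library is a ratio of reads. The change of that ratio between the libraries compares the same 2 sequences. Whether they were captured equally well in both libraries was not tested.

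The libraries were compared at each of 466 loci with at least 10 counts with an exact conditional binomial test (two-sided) on the pair of counts, using library sizes scaled by TMM (the trimmed mean of M-values, which removes a general shift between libraries), with Benjamini-Hochberg adjustment. Of the members, 2 of 3 passed, both higher in replicate 1, against 38.0% of all loci tested (18.7% with replicate 1 higher and 19.3% with replicate 2 higher). All 3 members averaged at least 100 CPM. Of the 205 loci at that level, 73 were called higher in replicate 1 and 67 higher in replicate 2. Most loci at that level were thus called, so 2 of 3 does not set the members apart. Ratios below are log2 values of replicate 1 over replicate 2. Their median was 0.16 over the 3 members and -0.0041 over all loci tested. Replicate 1 was higher at 49.2% of the called loci with TMM scaling and at 61.9% when libraries were scaled by their totals. The test holds counting error alone and no spread between animals, so a call separates 2 libraries and nothing more.

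Mir182 had a log2 ratio of 0.76, or 1.70-fold, with replicate 1 higher (adjusted p = 2.48e-74, exact conditional binomial test). Of the 205 loci with a mean level of at least 100 CPM, 7 had a ratio farther from 0, and 192 of the 205 lay within 1.5-fold, which Mir182 did not. When a fold of at least 1.5 was required as well, Mir182 was the only member called, against 7.30% of all loci tested and 3.86% in that direction. Mir96 had a log2 ratio of 0.16, or 1.11-fold, with replicate 1 higher (adjusted p = 0.0273, exact conditional binomial test), and 100 of the 205 loci had a ratio farther from 0. Mir183 had a log2 ratio of 0.07 and did not pass (adjusted p = 0.0797, same exact test). It passed with scaling to library totals (0.14, adjusted p = 0.000155 by the exact test) and with no filter on counts (0.11, adjusted p = 0.00977 by the exact test), again higher in replicate 1.

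**Figure D3:**
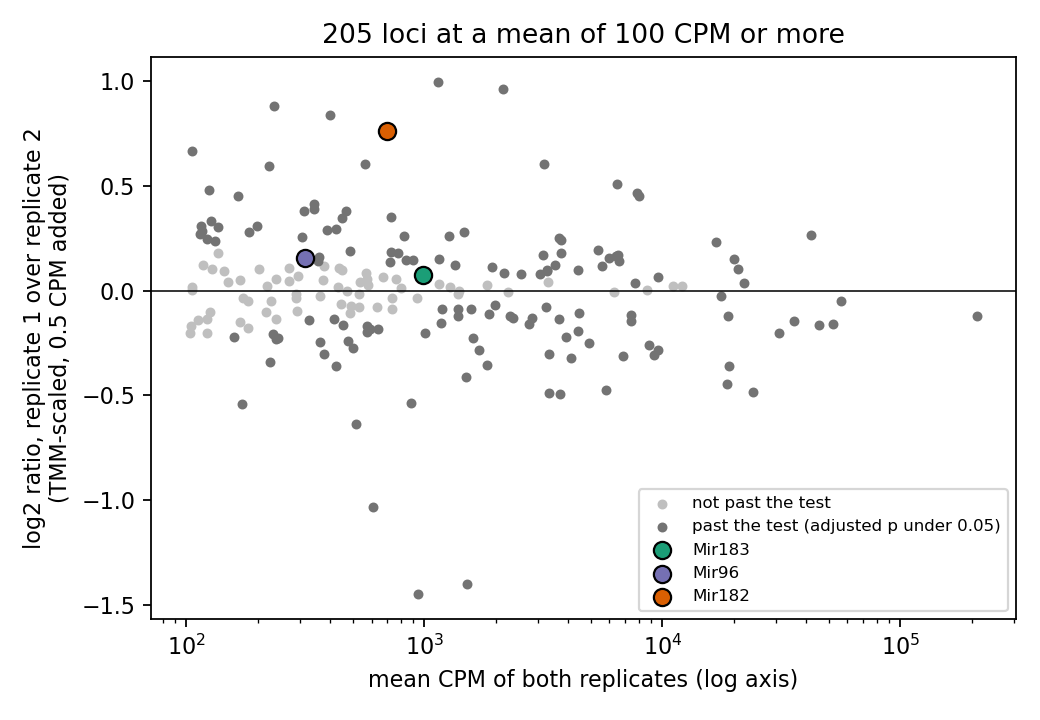
Log2 of replicate 1 over replicate 2 (TMM-scaled, 0.5 CPM added) against mean CPM on a log axis for the 205 loci at 100 CPM or more, dark where past the exact test. Mir183 at 0.07 and Mir96 at 0.16 lie within the bulk of loci, and Mir182 at 0.76 lies near its upper edge.

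Ratios between the hairpins need no library scaling, but they come from the same counts and are not separate evidence. There were 0.865 reads of Mir182 per read of Mir183 in replicate 1 and 0.536 in replicate 2, a 1.61-fold difference, or 0.69 on the log2 scale (95% counting interval 0.58 to 0.80). Per read of Mir96 there were 2.63 reads of Mir182 in replicate 1 and 1.72 in replicate 2, a log2 difference of 0.61 (0.46 to 0.75). Mir96 and Mir183, the neighbours 116 nt apart, kept nearly the same proportion, with 0.329 and 0.311 reads of Mir96 per read of Mir183 and a log2 difference of 0.08 (-0.05 to 0.22). The interval for Mir96 to Mir183 includes 0, and those of both ratios with Mir182 do not. Most of the other hairpin pairs described next also had an interval without 0, so leaving out 0 is not particular to Mir182.

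These differences were set beside the same measure for other microRNA hairpins within 5 kb on 1 strand, both averaging at least 100 CPM. In 112 such pairs without the members, the size of the log2 difference between the libraries had a median of 0.19 and a 90th percentile of 0.48. It exceeded that of Mir182 to Mir183 in 2 pairs (1.79%) and that of Mir182 to Mir96 in 4 pairs (3.57%), while 79 pairs (70.5%) exceeded Mir96 to Mir183. The 2 larger pairs were Mir181a-2 to Mir181b-2, whose hairpins share runs with other loci, and Mir363 to Mir18b. Among the 82 pairs in which neither hairpin shares a run of 20 nt, 1 exceeded Mir182 to Mir183. Pairs of 1 cluster share hairpins and are not independent, so these shares are a description with no test. Other pairs over 3000 nt apart, as Mir182 is from its partners, had a median of 0.19 (n = 34), and other pairs up to 500 nt apart had 0.11 (n = 38).

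**Figure D4:**
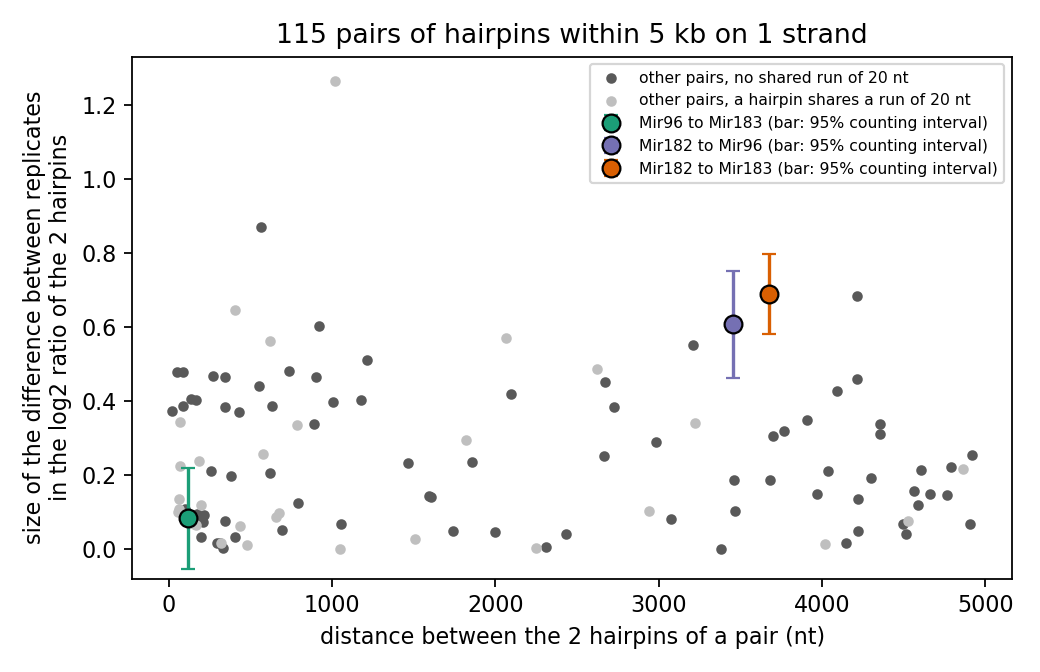
Size of the difference between replicates in the log2 ratio of 2 hairpins, against their distance in nt, for 115 pairs within 5 kb on 1 strand at 100 CPM or more, with 95% counting intervals for the 3 pairs of the cluster. Both pairs with Mir182 lie above 0.60, and Mir96 to Mir183 lies at 0.08.

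The cluster was also compared with the other 8 same-strand clusters that have 3 or more hairpins at 100 CPM or more. Its highest hairpin stood 3.12-fold above its lowest (3.04 in replicate 1 and 3.22 in replicate 2), the second smallest span of the 9. Only hairpins at 100 CPM or more enter the spans. The miR-302 cluster of pluripotent cells, led by Mir302a, was just below at 1.71-fold, from 3 of its 5 hairpins with a row. The others were under 100 CPM and left out, among them Mir302c at 54.0 and 56.9 CPM in replicates 1 and 2. Of the 3 hairpins kept, 2 share runs with other loci. The Sfmbt2 intron cluster led by Mir467c was just above at 5.56-fold, and the widest span of levels was 189.6-fold. By contrast, the range of log2 ratios between the libraries was 0.69 in the miR-183/96/182 cluster, the third widest of the 9, where the others ran from 0.08 to 0.87. In the miR-106b/25 cluster, also of 3 hairpins and led by Mir93, levels spanned 35.9-fold and log2 ratios only 0.08. Among hairpins at 100 CPM or more, those of the cluster were among the most even in level and the more uneven between the libraries. Neither rank was tested. The 9 clusters held 3 to 22 such hairpins, a span can only grow with their number, and all 3 members passed the limit. The rank in level therefore cannot be separated from cluster size and the limit.

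**Figure D5:**
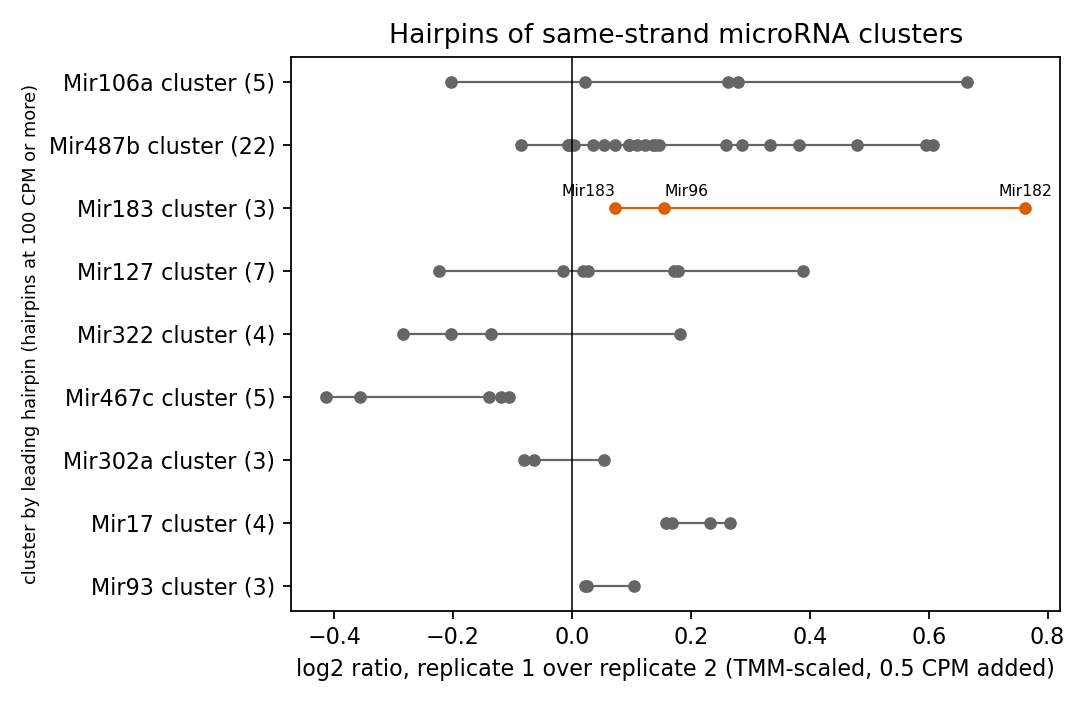
Log2 of replicate 1 over replicate 2 for each hairpin at 100 CPM or more of 9 same-strand microRNA clusters, named by their leading hairpin, with the number of hairpins in brackets. Mir183 and Mir96 lie close together at 0.07 and 0.16 and Mir182 apart at 0.76, whereas the 3 hairpins of the Mir93 cluster span 0.08.

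The loci most like each member were those nearest to it in log2(CPM + 0.5) over the 2 replicates, a likeness of level in 2 samples only. Nearest to Mir183 were Mir325 (distance 0.13), Mir543 (0.20) and Mir363 (0.20). Nearest to Mir96 were Mir7-2 (0.05), Mir384 (0.07) and Mir16-2 (0.10). Nearest to Mir182 were Mir350 (0.32), Mir7-1 (0.42) and Mir341 (0.44), all farther off than the neighbours of the other hairpins. Mir7-1, a locus of the neuroendocrine microRNA miR-7, stood at 691 CPM in replicate 1 and 434 CPM in replicate 2, with a log2 ratio of 0.61. Mir7-1, Mir7-2 and Mir16-2 share runs with other loci and are uncertain.

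Other microRNAs of the cell types that carry the cluster, or that a midbrain dissection could hold, were counted from 8 fixed lists. In bulk tissue, fewer cells of a type and less RNA per cell cannot be told apart. Epithelial microRNAs (the miR-200 family, Mir203 and Mir205) had 7 of 7 members at 1 CPM in both replicates but only Mir203, a keratinocyte microRNA, at 100 CPM, and they summed to 625 and 679 CPM. The other 6 epithelial loci were led by Mir429 (30.5 ± 7.00 CPM) and Mir205 (20.7 ± 3.47 CPM; SD, n = 2), far under the lowest hairpin of the sensory cluster. Of the epithelial loci 0 were higher in replicate 1 by the exact conditional binomial test, Mir203 and Mir429 (2) were lower there, and 5 did not pass, so that 2 of 7 were called against 38.0% of all loci tested.

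Of the specialised cell types, the called pigment epithelium, choroid plexus and multiciliated loci were higher in replicate 2, and the endocrine loci differed in both directions. Pigment epithelium and choroid plexus loci summed to 1239 and 1976 CPM, with 5 of 6 higher in replicate 2 (19.3% over all loci tested), led by Mir204 (877 ± 200 CPM), the microRNA of the retinal pigment epithelium and choroid plexus, Mir1298 (606 ± 277 CPM) and Mir448 (70.5 ± 26.1 CPM). Multiciliated loci summed to 1312 and 2659 CPM, with 2 of 5 higher in replicate 2 against the same 19.3%, Mir449a (1512 ± 925 CPM) and Mir34c (453 ± 21.8 CPM), and Mir34b at 16.5 ± 3.63 CPM. Endocrine loci with a row under the listed name summed to 2528 and 2557 CPM, with Mir7b (1143 ± 570 CPM) higher in replicate 1, Mir375 (944 ± 595 CPM) higher in replicate 2 and 3 of 5, among them Mir217 (270 ± 14.9 CPM), not past the test. With Mir7-1 and Mir7-2 added, which the list named Mir7a-1 and Mir7a-2 and which were matched through RefSeq synonyms after seeing the data, the 7 loci summed to 3567 and 3289 CPM, with 3 higher in replicate 1, 1 higher in replicate 2 and 3 not past the test. Loci of 1 list can lie on 1 primary transcript, so these counts of called loci, such as 5 of 6, are not counts of independent changes. All SDs are over 2 replicates.

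Neural progenitor and neuron loci summed to 10615 and 7755 CPM, of which Mir137, a microRNA of neuronal maturation, made up most. Every other locus of this list with a row shares runs with other loci and is uncertain, since gene counts leave out multimapping reads. How many reads these loci lost was not tested, so the part of Mir137 in the sum holds for counted reads only. The counts that follow stand against 38.0% of all loci called. Mir137 was higher in replicate 1 with a log2 ratio of 0.47, Mir128-2 was higher in replicate 2, and 8 of 10 did not pass, among them Mir128-1 (532 ± 3.50 CPM) and Mir9-3 (377 ± 33.8 CPM). The endothelial Mir126a stood at 16256 and 21170 CPM and was higher in replicate 2. Erythroid loci summed to 93.4 and 86.9 CPM with Mir451a higher in replicate 1 and 2 not past the test, and leukocyte loci to 319 and 349 CPM with Mir223 higher in replicate 2 and 2 not past the test. No locus of these lists with a row had 0 counts over both libraries. Their part in the difference at Mir182 was not tested.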

How the data were processed

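Each deposited table holds raw, unnormalised read counts for every gene on mm10 with annotation M4, per the notes beside the tables. Aligner, trimming and filters: not given in the sources used here. The 3 unnamed count columns were taken as unstranded, gene-strand and opposite-strand counts, an inference, since the first equals the sum of the others in 3946 of 3946 rows. Multimapping reads, in no gene count, were 34.4% and 37.7% of all reads of replicates 1 and 2. Symbols and coordinates came from GENCODE M21, which matched 1894 of 1973 IDs, and the 3 members had the same ID version. CPM, cluster shares and exact intervals came from gene-strand counts, with all gene rows in the total. edgeR 4.0.16 gave TMM sizes, and with 1 group could fit no contrast. The exact test used scipy 1.17.1 (Python 3.11.15), a pseudocount of 0.5 CPM for ratios and an adjusted p of 0.05, and was tested on simulated data. Alternatives were DESeq2 1.42.0 size factors (R 4.3.3), scaling to totals, unstranded counts, other minimum counts, other pseudocounts and denominators, a required fold of 1.5 and each replicate left out. Named loci were the members, the 3 nearest loci of each, the leading 3 of each list and the clusters next in span. Others named, Mir181a-2, Mir181b-2, Mir363 with Mir18b as a pair, the cluster led by Mir93 and the called members of lists, were chosen after their values were seen. The split of pairs by distance was also added then. Members and lists were chosen with earlier results of these data known. Of the lists, Mir9-1 and Mir142 matched no row by ID and were not analysed here. Mir7a-1 and Mir7a-2 are Mir7-1 and Mir7-2 in the annotation, per RefSeq synonyms, and the endocrine list is given without and with them.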

Additional observations from a re-analysis of the deposited data

Results flagged for a closer look

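Reads on the opposite strand, which the comparisons do not use, lay above the limit of 3 counts that a count of 0 allows at 2 of the 3 hairpins. At Mir182 there were 12 in replicate 1 and 5 in replicate 2, or 0.263% and 0.338% of the reads at that place. At Mir183 there were 10 and 6, or 0.190% and 0.218%. Mir96 had 0 in both libraries. Of the 205 loci averaging at least 100 CPM, 186 had 0 opposite-strand reads in replicate 1 and 188 in replicate 2. The share was larger than that of Mir182 at 4 and 3 of these loci and larger than that of Mir183 at 8 and 6. Their source was not tested.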

How the results depend on the processing

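With 2 libraries of 1 group, every statement rests on 1 pair. Over 42 recomputed values, 37 kept their direction and call or moved by less than the spread between replicates, 2 passed the test newly, 3 moved and 0 reversed. Some of the 37 could not have come out otherwise. Leaving out 1 of 2 replicates always moves a mean by less than the SD. The pseudocount enters the ratio and not the exact test, so it could change no call. Those that passed newly were both Mir183, with a log2 ratio of 0.14 when scaled to library totals and 0.11 with no filter on counts. Both settings change the library sizes, which by construction shifts the ratios of all loci nearly alike. Mir96 and Mir182 rose too, to 0.22 and 0.83 with library totals and to 0.19 and 0.80 with no filter. The cluster's share of counts was 0.111% with multimapping reads in the denominator and 0.252% without Mir99a in it, by construction of a larger and a smaller total. Requiring a fold of at least 1.5 left 34 of the 177 called loci. Leaving out a replicate gave a cluster share of 0.173% to 0.226%, and shares within the cluster of 45.6% to 54.1% for Mir183, 15.0% to 16.8% for Mir96 and 29.0% to 39.4% for Mir182. Mir182 kept its call in all 6 alternatives of its test, with log2 ratios of 0.76 to 0.83, and so did Mir96, with 0.15 to 0.22 and adjusted p of 0.000814 to 0.0316 by the exact conditional binomial test. The 6 include the other pseudocount, which could not change a call. No paired analysis was possible because there is only 1 group.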

Other observations

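Among loci averaging at least 100 CPM, 4 had a larger log2 ratio in favour of replicate 1 than Mir182 (0.76), all named after their values were seen. Mir7b stood at 1.00, Mir181b-2 at 0.96, Mir138-2 at 0.88 and Mir138-1 at 0.84, by TMM-scaled ratios. The miR-7 and miR-138 families are known from neurons and neuroendocrine cells. Mir181b-2, Mir138-2 and Mir138-1 share runs with other loci, so Mir7b and Mir182 had the largest such ratios among loci that share none. The 3 loci with larger ratios in favour of replicate 2 were Mir375 (-1.45), Mir449a (-1.40) and Mir1298 (-1.03).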
